A study of Mus musculus with 3 samples.

Results

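Axon guidance ligands and receptors are described here in whole mouse skin at 3 ages. The genes were chosen by name: every row whose symbol begins with Plxn or Unc5, or with Sema, Nrp, Robo, Slit, Ntn, Epha, Ephb, Efna or Efnb and a digit. This gave 70 of the 21877 gene rows common to the ages, namely 31 semaphorin-plexin genes, 22 ephrin and Eph genes, 8 netrin and UNC5 genes and 7 Slit-Robo genes. The remaining 2 rows, Unc50 and Unc5cl, carry the prefix without being netrin receptors. Unc50 is a Golgi protein named after a worm gene, and Unc5cl is a relative of the UNC5 receptors. The 68 others are called guidance genes below.

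Skin of FVB mice, an inbred albino strain, was taken from embryos 18.5 days old (E18.5), pups 3 days old (P3) and adults of 10 weeks, without any treatment or mutation named in the labels. RNA was sequenced, and each age has 1 value per gene in FPKM, the number of sequenced fragments adjusted for transcript length and for sequencing depth, headed as an average. Of the 2 biological replicates that the design gives each stage, single values were not analysed here, so no value carries an error and no difference has a replicate check or a p-value. The number of mapped fragments is unknown, and with it the counting error of low values.

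Guidance molecules were first known for steering growing axons, and most also act outside the nervous system on vessels, epithelia and immune cells. A ligand is secreted or held on a cell surface, and its receptor rearranges the cytoskeleton of the receiving cell, which is drawn in or pushed away. In skin, sensory axons grow among keratinocytes, hair follicles and vessels that themselves make such ligands and receptors. The cell bodies of those axons lie in ganglia outside the skin.

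As whole skin is a mixture, the levels of genes that mark its cell types are given once. The summed FPKM of 10 endothelial markers was 263 (E18.5), 85.4 (P3) and 225 (10wk). For 8 fibroblast markers it was 4081 (E18.5), 1561 (P3) and 4494 (10wk), and for 9 skeletal muscle markers 4486 (E18.5), 381 (P3) and 22905 (10wk). For 7 basal keratinocyte markers it was 2609.6 (E18.5), 6036 (P3) and 2601 (10wk), for 10 hair follicle matrix and shaft markers 153 (E18.5), 2931 (P3) and 158 (10wk), and for 10 macrophage markers 282 (E18.5), 108 (P3) and 2752 (10wk). The P3 tissue thus had higher sums for keratinocyte and hair markers, and lower sums for vessel, fibroblast, muscle and macrophage markers, than either other age. Fewer cells of a type and less RNA per cell cannot be told apart in such samples. Of 12 neuronal markers, 2 reached 1 FPKM at any age, and these had opposite courses. Tubb3 was highest at P3, at 1.99 (E18.5), 16.5 (P3) and 1.28 (10wk) FPKM, and Stmn2 lowest, at 7.51 (E18.5), 3.38 (P3) and 4.95 (10wk). Markers of Schwann cells, the glia of skin nerves, summed to 41.5 (E18.5), 75.4 (P3) and 298 (10wk) FPKM. The sex-linked genes also differed, Xist being at 0.0433 (E18.5), 64.6 (P3) and 73.0 (10wk) FPKM and the Y-linked Ddx3y at 24.1 (E18.5), 0.0218 (P3) and 0 (10wk), so that age and a male or female pattern cannot be told apart in comparisons with E18.5.

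Genes entered a comparison when they reached 1 FPKM in 1 or more of the samples. After adding 1 to each FPKM value, the later age was divided by the earlier, and the log2 of this ratio is the difference printed below, which understates the change of low genes. The words higher and lower stand for differences of 1 or more in size (2-fold), unless values say otherwise. Of the 70 rows, 57 could be compared, 56 of them guidance genes. The 13 others stayed at or below 0.832 FPKM: Epha5, Epha6, Epha8, Epha10, Ntn5, Plxnb3, Robo3, Sema4f, Slit1, Unc5a, Unc5c, Unc5d and Unc5cl. Epha10 was listed at 0 at each age. Robo3, a receptor of commissural axons in the spinal cord and hindbrain, did not exceed 0.0333 FPKM. Unc50 stood at 33.8 (E18.5), 34.2 (P3) and 44.7 (10wk) FPKM and was not called in any comparison.

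At P3, 5 of the 10 Eph receptors compared (Epha1, Epha2, Epha4, Ephb1 and Ephb6), Efna3, Unc5b, Ntn4, Plxna2, Sema4a and Sema4d were higher than at E18.5, while Plxnd1, Nrp1, Robo2, Robo4, Epha3, Sema5b and 3 of the 4 class 6 semaphorins were lower. Of the 57 compared, 11 were higher in the P3 sample, against 9.56% of all 14653 genes compared, and 9 were lower, against 9.42%. These are 19.3% and 15.8% of the members. All 11 and all 9 kept their call under each of 3 other scalings of the libraries. With pseudocounts of 0.1 and 5 as well, 6 of the higher remained, Efna3, Epha1, Epha2, Epha4, Ephb6 and Unc5b, and 1 of the lower, Plxnd1. The median log2 difference of the members was 0.16, against 0.03 for all genes, and -0.04 when the libraries are scaled to the sum of FPKM without the most abundant genes. The scalings shift log2 ratios of FPKM in this comparison by -0.11 to -0.18. Over all genes 1401 were higher and 1380 lower as deposited, and 1141 and 1775 with upper-quartile scaling or 1456 and 2166 with scaling to that sum.

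At 10 weeks, the vessel-associated Nrp1 and Plxnd1, the class 6 semaphorins Sema6b, Sema6c and Sema6d, and the secreted Sema3b, Sema3c, Sema3g and Slit3 were higher than at P3. The lower ones were all receptors: Epha1, Epha2, Epha4, Ephb1, Ephb3, Plxna2, Plxnb1, Robo1, Robo2 and Unc5b. The counts for 10 weeks over P3 were 9 higher, against 19.8% of all 14655 genes, and 10 lower, against 9.98%, with 15.8% and 17.5% of the members. The median was -0.37, against 0.14 for all genes. Scaling to the sum without the most abundant genes gives 9 higher and 16 lower. Sema3g, at a log2 difference of 1.07, loses its call with the median of ratios (0.98) and the upper quartile (0.97). With the 3 scalings and both pseudocounts, 6 of the 9 higher remained (Nrp1, Plxnd1, Sema3b, Sema3c, Sema6c and Slit3) and 5 of the 10 lower (Epha1, Epha2, Epha4, Robo1 and Unc5b). Both comparisons use the same P3 values, so they are not independent of each other.

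Between the outer ages fewer genes differed. At 10 weeks 7 were higher than at E18.5, against 16.1% of all 14659 genes, and 4 were lower, against 6.92%, with 12.3% and 7.02% of the members. The higher were Efna3, Ntn4, Sema3c, Sema3d, Sema3e, Sema4a and Slit3, and the lower Efna2, Robo2, Sema3a and Sema5b. The split of 7 higher and 4 lower depends on scaling, being 5 and 5 with the median of ratios, 3 and 6 with the upper quartile, and 6 and 7 with the sum. Ntn4, Sema3c and Sema4a were higher and Robo2, Efna2, Sema3a and Sema5b lower under each scaling. With both pseudocounts as well, Robo2 alone of the lower remained. The members on chromosome X (Efnb1, Plxna3 and Plxnb3) were not called in any comparison, so leaving them out could not change the counts. It says nothing of the sex difference for genes on other chromosomes.

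**Figure D1:**
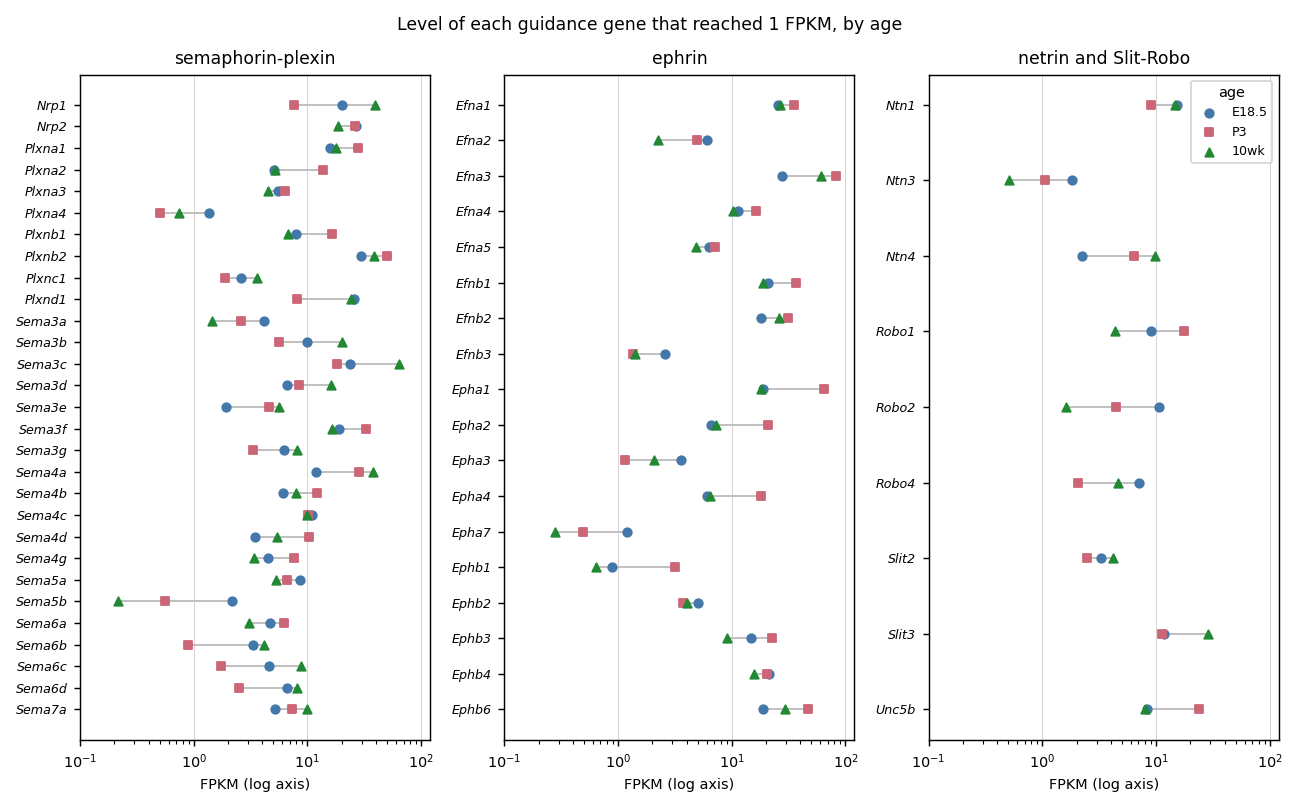
FPKM of the 56 guidance genes that reached 1 FPKM, on a log axis, 1 row per gene; circles are E18.5, squares P3 and triangles 10 weeks, 1 averaged value each, and grey lines join the lowest and highest. Epha1, Epha2, Epha4, Unc5b and Plxna2 have their P3 square far to the right of both other symbols, and Nrp1, Plxnd1 and Sema6b, Sema6c and Sema6d have it far to the left.

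At 2-fold against both other ages at once, the P3 value was the highest for 6 members (Epha1, Epha2, Epha4, Ephb1, Plxna2 and Unc5b), against 5.35% of all 14653 genes, and the lowest for 5 (Nrp1, Plxnd1, Sema6b, Sema6c and Sema6d), against 5.54%. All 6 of the first group are receptors. At 10 weeks 2 were highest, Sema3c and Slit3, both secreted ligands, against 12.3% of all genes, and 1 was lowest, Robo2, against 3.51%. At E18.5 the highest were Robo2 and Sema5b, against 2.91%, and the lowest Efna3, Ntn4 and Sema4a, against 2.45%. A further 26 rows stayed under 2-fold in all comparisons. Among them were the abundant Plxnb2, Efna1, Efnb1, Efnb2, Ephb4, Nrp2, Sema3f and Plxna1.

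Ligands and receptors were also counted apart, after the values were seen. Between 10 weeks and P3, 7 of 32 ligands were higher and 0 lower, whereas 2 of 24 receptors and co-receptors were higher and 10 lower. Over all genes 19.8% were higher and 9.98% lower, so the share of higher ligands was near that of all genes. The count of 0 lower ligands becomes 3 with the median of ratios or the upper quartile and 6 with scaling to the sum, while the receptors stay at 2 and 10 under each scaling. Between 10 weeks and E18.5, 7 ligands were higher and 3 lower, and 0 receptors were higher and 1, Robo2, lower, against 16.1% and 6.92% of all genes. The ligand counts become 5 and 3 with the median of ratios, 3 and 4 with the upper quartile and 6 and 4 with the sum. Those of the receptors become 0 and 2 with the median of ratios or the upper quartile, and 0 and 3 with the sum. Ligands made up 52.0% of the summed guidance FPKM of the E18.5 sample, 50.3% of P3 and 62.1% of 10 weeks, a share that no scaling of a library alters.

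**Figure D2:**
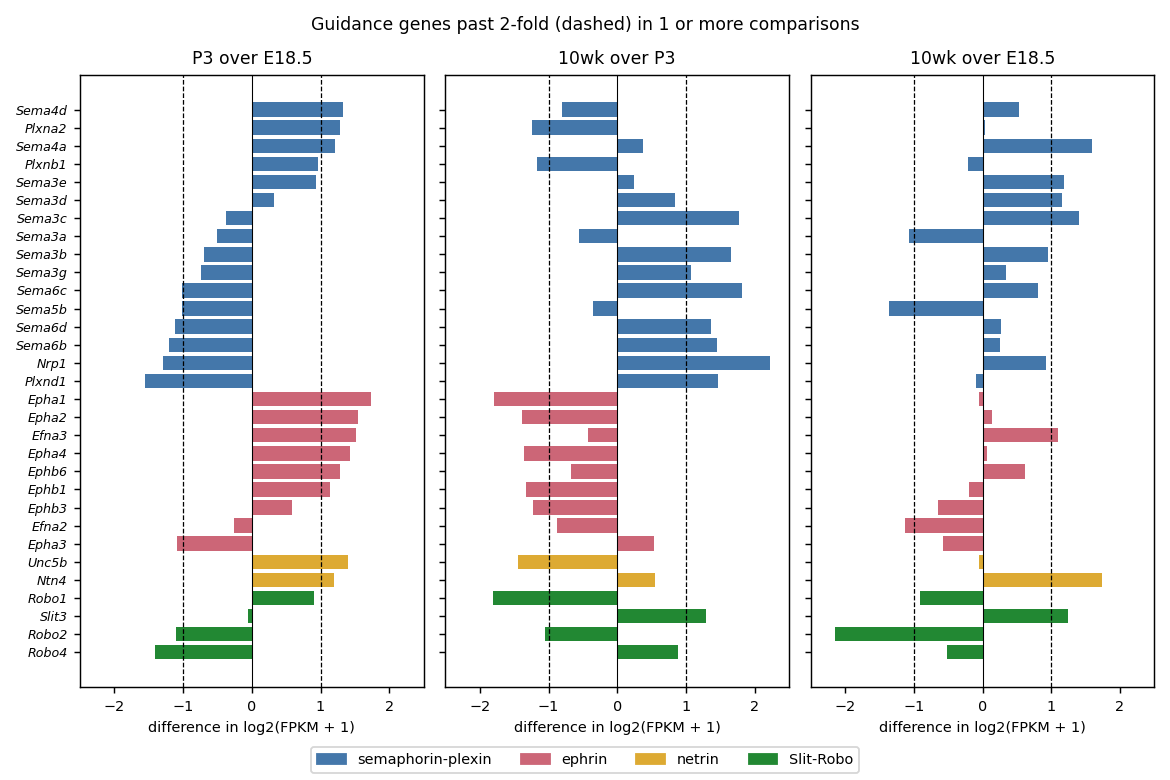
Log2 differences of FPKM + 1, later age relative to earlier, of the 31 guidance genes past 2-fold in 1 or more comparisons; bars are coloured by family and dashed lines mark the threshold of 1. In the ephrin family the bars of Epha1, Epha2, Epha4 and Ephb1 reach past 1 in P3 over E18.5 and past -1 in 10wk over P3, and are near 0 in 10wk over E18.5.

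Eph receptors are receptor tyrosine kinases that are engaged by ephrins on neighbouring cells, and signals pass into both cells. Ephrin-A ligands are held by a lipid anchor and ephrin-B ligands span the membrane. Eph and ephrin genes were the family with the largest part of the guidance FPKM at P3, 50.6%, compared with 37.9% at E18.5 and 34.0% at 10 weeks. Of 18 compared, 6 were higher in P3 skin and 1 lower, relative to E18.5, where 9.56% and 9.42% of all genes were. In adult skin 0 were higher and 5 lower, relative to P3, where 19.8% and 9.98% of all genes were. The family median was 0.54 in the first comparison (0.37 to 0.45 under the other scalings) and -0.55 in the second (-0.64 to -0.73).

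Epha1, a receptor abundant in epidermis, stood at 19.0 (E18.5), 65.3 (P3) and 18.2 (10wk) FPKM, with log2 differences of 1.73 for P3 over E18.5 and -1.79 for 10 weeks over P3. On the scale of FPKM + 1, it was the only one of the 11 members higher at P3 that also passed 3-fold. Epha2, the receptor by which ephrin-A1 acts on keratinocytes and vessels, was at 6.50 (E18.5), 20.8 (P3) and 7.28 (10wk) FPKM. Epha4, which binds ephrins of both classes, was at 6.10 (E18.5), 18.1 (P3) and 6.41 (10wk) FPKM. All 3 receptors were back within 0.14 log2 units of their E18.5 level at 10 weeks. Epha3, another receptor of ephrin-A ligands, was instead lower at P3, at 3.58 (E18.5), 1.15 (P3) and 2.09 (10wk) FPKM, and loses that call with a pseudocount of 5. Epha7 was at 1.19 (E18.5), 0.494 (P3) and 0.281 (10wk) FPKM and was not called. The sum over the 9 EphA receptor rows was 36.6 (E18.5), 106 (P3) and 34.3 (10wk) FPKM, most of it Epha1 at each age.

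Of the EphB receptors, Ephb1 was at 0.881 (E18.5), 3.14 (P3) and 0.643 (10wk) FPKM, a low level at which its calls are lost with a pseudocount of 5. Ephb6, whose kinase domain is inactive, was at 18.8 (E18.5), 47.3 (P3) and 29.3 (10wk) FPKM, higher at P3 by 1.28 log2 units. Ephb3 was at 14.7 (E18.5), 22.5 (P3) and 9.02 (10wk) FPKM and lower at 10 weeks than at P3 (-1.23, or -0.97 with a pseudocount of 5). Ephb2, at 5.07 (E18.5), 3.70 (P3) and 4.04 (10wk) FPKM, and Ephb4 were not called. Ephb4, the receptor of veins, stood at 21.4 (E18.5), 20.5 (P3) and 15.7 (10wk) FPKM, while endothelial markers were at 85.4 FPKM in sum at P3, against 263 at E18.5. Its ligand Efnb2, the ephrin of arteries that epithelia also make, stood at 17.9 (E18.5), 31.0 (P3) and 25.8 (10wk) FPKM.

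Among the ephrins, Efna3 was the most abundant guidance gene at P3 and second to Sema3c at 10 weeks, at 27.9 (E18.5), 81.8 (P3) and 60.6 (10wk) FPKM. Its difference at P3 over E18.5 was 1.52. At 10 weeks over E18.5 it was 1.09, which drops under the threshold with each other scaling (0.80 to 0.88). Efna3 (mm9 chromosome 3, 89118873 to 89126801) lies between Efna1 (89075652 to 89084873) and Efna4 (89137315 to 89141950). These neighbours were not called: Efna1, the first ephrin described and a ligand of Epha2, was at 25.5 (E18.5), 35.3 (P3) and 26.6 (10wk) FPKM, and Efna4 at 11.3 (E18.5), 16.4 (P3) and 10.3 (10wk). The ratio of Efna3 to Efna1 was 1.09 (E18.5), 2.32 (P3) and 2.28 (10wk). Efna2 had less FPKM at each later age, with 6.07 (E18.5), 4.92 (P3) and 2.22 (10wk) FPKM, and was called lower at 10 weeks than at E18.5 (-1.13), a call lost with a pseudocount of 5. Efna5, Efnb1 and Efnb3 were not called. Efnb1, whose human gene is mutated in craniofrontonasal syndrome, was at 21.0 (E18.5), 36.7 (P3) and 18.7 (10wk) FPKM, Efna5 at 6.32 (E18.5), 7.18 (P3) and 4.87 (10wk) and Efnb3 at 2.57 (E18.5), 1.34 (P3) and 1.41 (10wk).

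**Figure D3:**
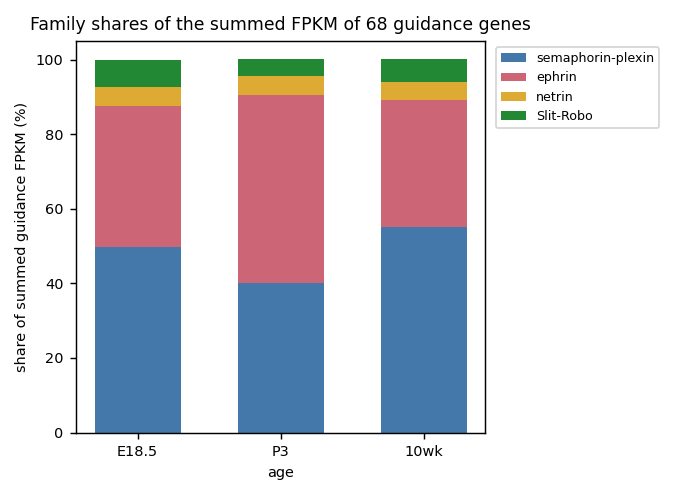
Share of the summed FPKM of the 68 guidance genes held by each family at each age, in percent; the bars are stacked and each adds up to the whole. The ephrin family holds 50.6% at P3, and the semaphorin-plexin family 49.8% at E18.5 and 55.2% at 10 weeks.

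The genes highest at P3 were set beside epidermal markers, which were high at the same age. Summed markers of hair follicle matrix and shaft, neurons and proliferating cells were highest at P3 too. So were those of melanocytes, at 107 (E18.5), 263 (P3) and 32.2 (10wk) FPKM. No ratios to these other sums were computed. The 8 suprabasal markers with a value at each age summed to 4479 (E18.5), 14342 (P3) and 4404 (10wk) FPKM. Per 1000 FPKM of this sum, Epha1 was at 4.24 (E18.5), 4.55 (P3) and 4.12 (10wk), Epha2 at 1.45 (E18.5), 1.45 (P3) and 1.65 (10wk), Epha4 at 1.36 (E18.5), 1.26 (P3) and 1.46 (10wk), and Unc5b at 1.86 (E18.5), 1.65 (P3) and 1.82 (10wk). Plxna2 was at 1.13 (E18.5), 0.953 (P3) and 1.18 (10wk), and Ephb1 at 0.197 (E18.5), 0.219 (P3) and 0.146 (10wk). Relative to this sum, all 6 receptors thus differed by less than 2-fold between ages. The sum is weighted to its abundant markers, whose changes differed in size. Krtdap was at 2901 (E18.5), 5735 (P3) and 2630 (10wk) FPKM, and Lor at 641 (E18.5), 5378 (P3) and 403 (10wk). Ratios to single markers were not computed. Per 1000 FPKM of the 7 basal markers, Epha1 was at 7.28 (E18.5), 10.8 (P3) and 6.98 (10wk), and Ephb1 at 0.338 (E18.5), 0.520 (P3) and 0.247 (10wk), over 2-fold apart between 10 weeks and P3. Epha2, Epha4, Plxna2 and Unc5b differed by less than 2-fold against the basal markers too. Efna3 did not keep such a constant ratio, with 6.23 (E18.5), 5.70 (P3) and 13.8 (10wk) per 1000 FPKM of suprabasal markers. Krt1 and Krt10 are left out of the suprabasal sum because their P3 estimates failed. These ratios were computed after the values were seen, and whether the epidermis or other cells carried the receptor RNA was not tested.

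Promoter sequence is shown for genes that are highest at P3 (Epha1, Epha2 and Unc5b) and lowest at P3 (Nrp1 and Plxnd1), because these groups had opposite courses. Each is the 250 bases before the RefSeq gene start in GRCm38.p6, 5′ to 3′ on the gene's strand, with GC boxes (GGGCGG on either strand) in capitals. Epha1 is at chr6:42373269-42373518 (minus strand), Epha2 at chr4:141300971-141301220 (plus strand), Unc5b at chr10:60831582-60831831 (minus strand), Nrp1 at chr8:128358823-128359072 (plus strand) and Plxnd1 at chr6:115995006-115995255 (minus strand).
Epha1: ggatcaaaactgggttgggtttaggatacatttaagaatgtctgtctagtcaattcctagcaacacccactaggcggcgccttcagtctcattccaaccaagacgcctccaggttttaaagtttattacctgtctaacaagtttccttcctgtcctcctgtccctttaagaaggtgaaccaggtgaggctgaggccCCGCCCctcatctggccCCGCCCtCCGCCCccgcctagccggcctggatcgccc
Epha2: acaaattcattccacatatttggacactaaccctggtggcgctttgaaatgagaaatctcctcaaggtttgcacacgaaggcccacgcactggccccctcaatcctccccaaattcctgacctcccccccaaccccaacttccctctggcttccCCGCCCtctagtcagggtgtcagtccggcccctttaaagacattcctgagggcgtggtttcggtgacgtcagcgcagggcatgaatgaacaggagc
Unc5b: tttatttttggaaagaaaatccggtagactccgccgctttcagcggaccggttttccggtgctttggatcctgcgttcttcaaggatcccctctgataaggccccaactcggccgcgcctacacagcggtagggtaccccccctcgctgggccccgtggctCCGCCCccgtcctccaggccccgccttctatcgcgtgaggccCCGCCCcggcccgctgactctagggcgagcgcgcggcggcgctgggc
Nrp1: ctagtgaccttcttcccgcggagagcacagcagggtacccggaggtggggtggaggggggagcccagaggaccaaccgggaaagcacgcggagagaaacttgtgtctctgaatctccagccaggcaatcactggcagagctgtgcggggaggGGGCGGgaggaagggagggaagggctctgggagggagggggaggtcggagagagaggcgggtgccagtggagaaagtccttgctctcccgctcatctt
Plxnd1: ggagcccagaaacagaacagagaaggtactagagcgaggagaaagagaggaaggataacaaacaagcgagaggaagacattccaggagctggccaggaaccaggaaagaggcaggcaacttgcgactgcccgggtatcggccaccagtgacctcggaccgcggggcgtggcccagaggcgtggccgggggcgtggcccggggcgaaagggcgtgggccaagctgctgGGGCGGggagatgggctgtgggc
A GC box was found in 5 of the 6 genes highest at P3, all but Ephb1, and in 5 of the 5 lowest at P3. It was found in 45 of the 61 members with a RefSeq promoter (73.8%), and in 56.9% of 10073 promoters of genes that reached 1 FPKM. The median GC content of these windows was 64.8% in the members and 59.2% in those genes, and its part in the difference was not tested. The p53-family core (paired C and G at fixed spacing) was searched because the title of the series names p63. This short pattern fixes few bases and was found in 77.4% of the expressed genes and in 86.9% of the members. Its presence in all 6 and all 5 is therefore uninformative and could not separate the groups. Whether p53 or p63 binds any of these promoters was not tested. The AP-1 motif TGANTCA and the TATA box TATAAA were each found in 2 of 61 members and in none of the 11 genes of the 2 groups, against 4.99% and 7.58% of the expressed genes. The E-box CANNTG was found in Epha1 and in Sema6d among those genes, and in 45.9% of members and 58.1% of expressed genes. Both strands were searched and motifs may overlap. Members without an entry were Efnb3, Ntn1, Plxna1, Plxna4, Sema3b, Sema3f, Sema6a, Slit1 and Unc5d.

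Secreted class 3 semaphorins are bound by neuropilins, which pass the signal on through plexins, whereas the membrane-bound classes bind plexins directly. Among the class 3 ligands, 3 of 7 (Sema3b, Sema3c and Sema3g) were higher at 10 weeks than at P3 and 0 lower, against 19.8% and 9.98% of all genes. Relative to E18.5, 3 (Sema3c, Sema3d and Sema3e) were higher at 10 weeks and 1, Sema3a, lower, against 16.1% and 6.92%. With each other scaling Sema3f is also called lower at 10 weeks over P3, where it lies at -0.95 as deposited. Sema3g is no longer called there with the median of ratios or the upper quartile. The summed FPKM of the class 3 ligands was 71.3 (E18.5), 75.3 (P3) and 132 (10wk), most of the adult excess being Sema3c.

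Sema3c, which guides neural crest cells and cortical axons, stood at 23.8 (E18.5), 18.2 (P3) and 64.4 (10wk) FPKM, the highest value of any guidance gene at that age. Its difference was 1.77 for 10 weeks over P3 and 1.40 for 10 weeks over E18.5. Sema3b was at 9.84 (E18.5), 5.66 (P3) and 20.0 (10wk) FPKM and Sema3g, which endothelial cells make, at 6.22 (E18.5), 3.34 (P3) and 8.12 (10wk). Sema3d was at 6.61 (E18.5), 8.48 (P3) and 15.9 (10wk) FPKM, and Sema3e, the ligand that binds Plxnd1 without a neuropilin, at 1.90 (E18.5), 4.56 (P3) and 5.62 (10wk). Between the outer ages the call of Sema3d (1.15) is lost with each other scaling (0.89 to 0.98) and that of Sema3e (1.19) with the upper quartile (0.96). Sema3a, the classic repellent of sensory axons, went the other way and was at 4.15 (E18.5), 2.62 (P3) and 1.45 (10wk) FPKM, a difference of -1.07 between 10 weeks and E18.5 that is lost with a pseudocount of 5 (-0.50). Sema3f, a ligand of Nrp2, was at 18.8 (E18.5), 32.5 (P3) and 16.3 (10wk) FPKM. It lies near Sema3b (mm9 chromosome 9, 107583833 to 107612806 for Sema3f and 107500446 to 107511572 for Sema3b), and the 2 genes had opposite courses. The ratio of Sema3c to Sema3f was 1.27 (E18.5), 0.561 (P3) and 3.94 (10wk). The fibroblast markers did not share one course between the outer ages: at 10 weeks over E18.5, 2 of 8 were higher, Dcn and Dpt, and 4 lower, Col1a1, Col1a2, Twist2 and Postn. Dcn alone, at 572 (E18.5), 205 (P3) and 2217 (10wk) FPKM, made up much of their adult sum. Their part in the adult level of Sema3c was not tested.

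Of 12 membrane semaphorins compared, 2 were higher in P3 skin and 4 lower, relative to E18.5, where 9.56% and 9.42% of all genes were. In adult skin 3 were higher and 0 lower, relative to P3, where 19.8% and 9.98% of all genes were, so the share of higher ones was near that of all genes. Class 4 gave the 2 that were higher at P3, and class 6 the 3 that were higher in adult skin. Sema4a, a ligand of plexins that also acts on T cells, was at 11.8 (E18.5), 28.6 (P3) and 37.7 (10wk) FPKM, and its difference was 1.21 for P3 and 1.59 for 10 weeks, each over E18.5. Sema4d, the ligand of Plxnb1, was at 3.47 (E18.5), 10.3 (P3) and 5.44 (10wk) FPKM. The other class 4 members were not called: Sema4b was at 6.11 (E18.5), 12.2 (P3) and 7.95 (10wk) FPKM, Sema4g at 4.48 (E18.5), 7.68 (P3) and 3.37 (10wk), and Sema4c almost level at 11.0 (E18.5), 10.1 (P3) and 9.83 (10wk). Sema4g, at -0.99 for 10 weeks over P3, is called lower there with each other scaling (-1.07 to -1.23) and with a pseudocount of 0.1 (-1.16). Class 6 also gave most of those lower at P3: Sema6b was at 3.34 (E18.5), 0.888 (P3) and 4.17 (10wk) FPKM, Sema6c at 4.58 (E18.5), 1.75 (P3) and 8.71 (10wk), and Sema6d at 6.64 (E18.5), 2.52 (P3) and 8.12 (10wk), so that all 3 were lowest at P3. Sema6a, a class 6 member that acts through plexin-A receptors, did not share this course, with 4.72 (E18.5), 6.17 (P3) and 3.07 (10wk) FPKM. Each of the 9 skeletal muscle and 10 endothelial markers was also lowest at P3, as were 5 of the 8 fibroblast markers (all but Col1a1, Twist2 and Postn), and their part in the class 6 differences was not tested. Sema5b had less FPKM at each later age, with 2.15 (E18.5), 0.556 (P3) and 0.217 (10wk) FPKM, while Sema5a was at 8.55 (E18.5), 6.63 (P3) and 5.31 (10wk) and Sema7a, the lipid-anchored ligand of Plxnc1, at 5.19 (E18.5), 7.37 (P3) and 9.96 (10wk), neither being called. The P3 calls of Sema4a, Sema4d, Sema5b, Sema6b, Sema6c and Sema6d are lost with a pseudocount of 5.

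Among the plexins, which relay semaphorin signals through a domain that acts on small GTPases, 1 of 8 was higher in P3 skin and 1 lower, relative to E18.5, shares near the 9.56% and 9.42% of all genes. Plxna2, a receptor for class 3 and class 6 semaphorins, was at 5.05 (E18.5), 13.7 (P3) and 5.21 (10wk) FPKM, with differences of 1.28 and -1.24 that are lost with a pseudocount of 5. Plxnd1 (mm9 chromosome 6, 115904829 to 115945023), a receptor of developing vessels, was at 25.9 (E18.5), 8.13 (P3) and 24.1 (10wk) FPKM, with differences of -1.56 and 1.46. These 2 plexins thus differed in opposite directions by similar amounts, and both had an adult level near that of E18.5. Plxnb1 was at 7.98 (E18.5), 16.5 (P3) and 6.78 (10wk) FPKM, just under the threshold at P3 (0.96) and lower at 10 weeks (-1.17, or -0.87 with a pseudocount of 5). Plxnb2, the most abundant plexin at all 3 ages, was at 29.7 (E18.5), 50.5 (P3) and 38.6 (10wk) FPKM and was not called. Nor were the neuropilin partners Plxna1, at 15.7 (E18.5), 28.0 (P3) and 17.7 (10wk) FPKM, Plxna3, at 5.46 (E18.5), 6.40 (P3) and 4.52 (10wk), and Plxna4, at 1.37 (E18.5), 0.504 (P3) and 0.734 (10wk), or the Sema7a receptor Plxnc1, at 2.59 (E18.5), 1.88 (P3) and 3.56 (10wk). The ratio of Plxna1 to Plxnd1 was 0.605 (E18.5), 3.44 (P3) and 0.737 (10wk).

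Of the neuropilins, Nrp1 (mm9 chromosome 8, 130882973 to 131029375), co-receptor of Sema3a and of the vessel growth factor VEGF-A, was at 20.0 (E18.5), 7.56 (P3) and 38.9 (10wk) FPKM. Its difference of 2.22 for 10 weeks over P3 was the largest of any member in any comparison as deposited. With each other scaling Robo2 at 10 weeks over E18.5 is larger in size (-2.32 to -2.69), as are Robo2 (-2.65) and Sema5b (-2.83) with a pseudocount of 0.1. Nrp2, co-receptor of Sema3f and of lymphatic growth factors, was at 26.5 (E18.5), 26.4 (P3) and 18.5 (10wk) FPKM and was not called. Nrp2 exceeded Nrp1 before and just after birth, and Nrp1 exceeded Nrp2 in the adult, with ratios of Nrp1 to Nrp2 of 0.756 (E18.5), 0.287 (P3) and 2.11 (10wk). The P3 call of Nrp1 against E18.5 is -1.30, and -0.99 with a pseudocount of 5. Vegfa, a ligand of Nrp1 from the list of pathway partners, was at 33.1 (E18.5), 11.0 (P3) and 34.5 (10wk) FPKM and its receptor Kdr, also 1 of the 10 endothelial markers, at 19.1 (E18.5), 5.58 (P3) and 15.2 (10wk).

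Receptors known from endothelium were set beside endothelial markers. Per 100 FPKM of the 10 markers, Plxnd1 was at 9.85 (E18.5), 9.52 (P3) and 10.7 (10wk), and Robo4 at 2.68 (E18.5), 2.39 (P3) and 2.05 (10wk). Relative to those markers neither gene moved by 2-fold. Nor did the ligands Sema3g, at 2.37 (E18.5), 3.91 (P3) and 3.62 (10wk), Sema6b, at 1.27 (E18.5), 1.04 (P3) and 1.86 (10wk), and Sema6d, at 2.53 (E18.5), 2.95 (P3) and 3.62 (10wk). For Sema6c, which was also lowest at P3, no such ratio was computed, so this does not extend to all class 6 genes of that course. Nrp1 was at 7.62 (E18.5), 8.86 (P3) and 17.3 (10wk), so that its adult level was high against the markers too. Ephb4, at 8.16 (E18.5), 24.1 (P3) and 6.98 (10wk), and Efnb2, at 6.83 (E18.5), 36.4 (P3) and 11.5 (10wk), were high against them at P3. Summed markers of fibroblasts, muscle and macrophages were lowest at P3 too. As above, these ratios were computed after the values were seen, and whether endothelium or other cells carried the RNA was not tested.

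**Figure D4:**
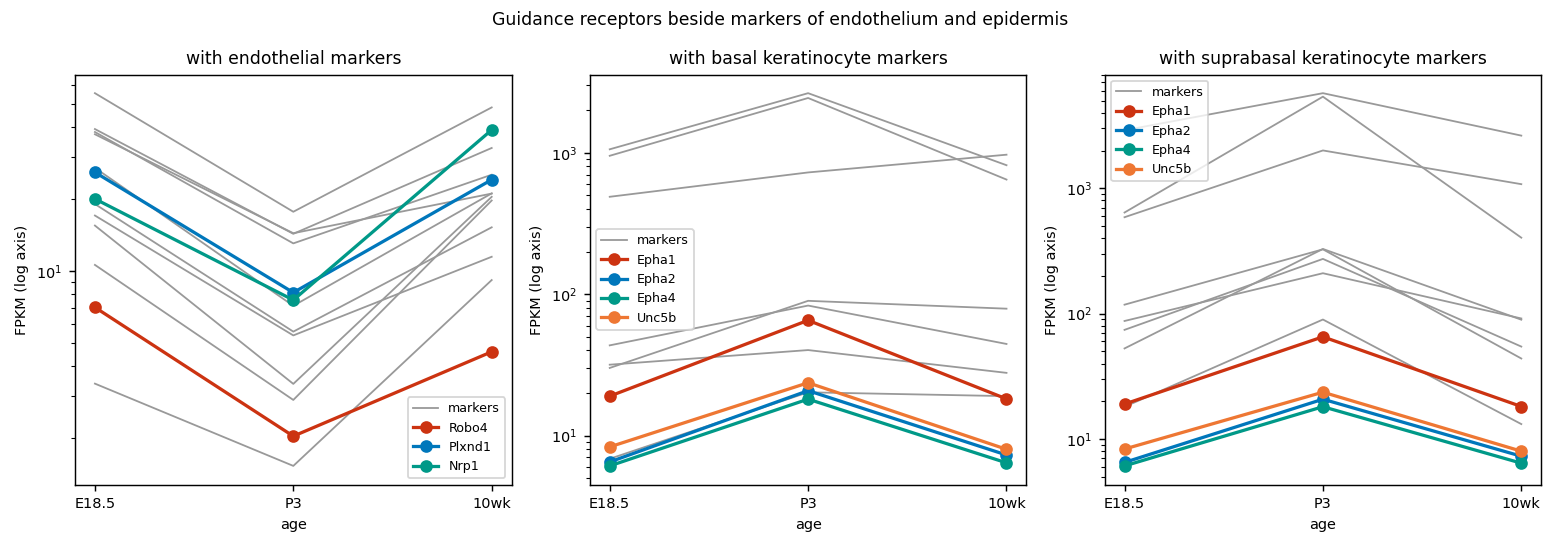
FPKM on a log axis at the 3 ages for named guidance receptors (coloured, with points) and for markers of endothelium, basal and suprabasal keratinocytes (grey lines, 1 per marker). Robo4, Plxnd1 and Nrp1 dip at P3 as the 10 endothelial markers do, and Epha1, Epha2, Epha4 and Unc5b peak at P3 as the 8 suprabasal markers do.

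Netrins are laminin-related secreted proteins. Ntn1 attracts axons through DCC or neogenin and repels them through UNC5 receptors, and Ntn4 is built into basement membranes. Ntn1 was at 15.2 (E18.5), 8.99 (P3) and 14.7 (10wk) FPKM and was not called. Ntn4 was at 2.25 (E18.5), 6.42 (P3) and 9.84 (10wk) FPKM, higher than at E18.5 both at P3 (1.19, or 0.66 with a pseudocount of 5) and at 10 weeks (1.74). The ratio of Ntn4 to Ntn1 was 0.148 (E18.5), 0.714 (P3) and 0.669 (10wk). Ntn3 was at 1.81 (E18.5), 1.06 (P3) and 0.513 (10wk) FPKM, in a listed span that overlaps Tbc1d24, so that its level is uncertain, and it was not called. Another gene row, Gm8580, overlaps Ntn4.

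Of the UNC5 receptors Unc5b alone reached 1 FPKM. Unc5b (mm9 chromosome 10, 60225343 to 60294329), a receptor of vessels and a dependence receptor in many cells, was at 8.31 (E18.5), 23.6 (P3) and 7.99 (10wk) FPKM, with differences of 1.40 and -1.45. Its ratio to Ntn1 was 0.548 (E18.5), 2.63 (P3) and 0.544 (10wk). Unlike the vessel receptors Plxnd1 and Robo4, it was high at P3, when endothelial markers were low. The attractant receptor Dcc did not exceed 0.104 FPKM, whereas its relative Neo1, neogenin, stood at 14.8 (E18.5), 29.7 (P3) and 14.5 (10wk), just under the threshold in both steps (0.96 and -0.99). Neo1 is called lower at 10 weeks over P3 with each other scaling (-1.08 to -1.16) and with a pseudocount of 0.1 (-1.03). Flrt2 and Flrt3, membrane proteins that bind UNC5 receptors, went different ways at 10 weeks over P3, at 1.08 and -1.03. Flrt2 was at 8.58 (E18.5), 9.73 (P3) and 21.7 (10wk) FPKM and Flrt3 at 16.4 (E18.5), 24.7 (P3) and 11.6 (10wk). Both calls lie close to the threshold, and the other scalings shift log2 ratios of FPKM in this comparison by -0.10 to -0.15.

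Slit proteins are secreted repellents that bind Robo receptors. Slit3, made by mesenchymal and vascular cells, was at 11.6 (E18.5), 11.2 (P3) and 28.8 (10wk) FPKM, higher at 10 weeks than at P3 (1.29) and than at E18.5 (1.24, or 0.96 with upper-quartile scaling). Slit2 was at 3.29 (E18.5), 2.46 (P3) and 4.19 (10wk) FPKM and was not called. The Robo receptors had another course than Slit3, their summed FPKM being 26.6 (E18.5), 24.1 (P3) and 10.6 (10wk) while that of the Slit ligands was 15.0 (E18.5), 13.7 (P3) and 33.2 (10wk). Slits thus summed to less than Robos at E18.5 and P3 and to more in the adult.

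The neighbouring genes Robo1 and Robo2 (mm9 chromosome 16, 72663394 to 73046345 and 73892551 to 74411157), the main Slit receptors of axons, had different courses. Robo1 was at 8.98 (E18.5), 17.7 (P3) and 4.33 (10wk) FPKM, with a difference of 0.91 for P3 over E18.5 and of -1.81 for 10 weeks over P3. Robo2 was at 10.6 (E18.5), 4.41 (P3) and 1.61 (10wk) FPKM, lower at each later age, and its -2.15 for 10 weeks over E18.5 was the largest difference of any member between those ages with a pseudocount of 1. It is -2.65 with a pseudocount of 0.1, where Sema5b is at -2.83, and -1.24 with a pseudocount of 5, where Sema4a is at 1.34 and Sema3c at 1.27. The ratio of Robo1 to Robo2 was 0.847 (E18.5), 4.01 (P3) and 2.69 (10wk). Robo2 passed 2-fold in all 3 comparisons, but the 2 steps between neighbouring ages (-1.10 and -1.05) are lost with a pseudocount of 5. Robo4, the endothelial Robo, was at 7.05 (E18.5), 2.04 (P3) and 4.60 (10wk) FPKM, lower at P3 (-1.41, or -0.78 with a pseudocount of 5).

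**Figure D5:**
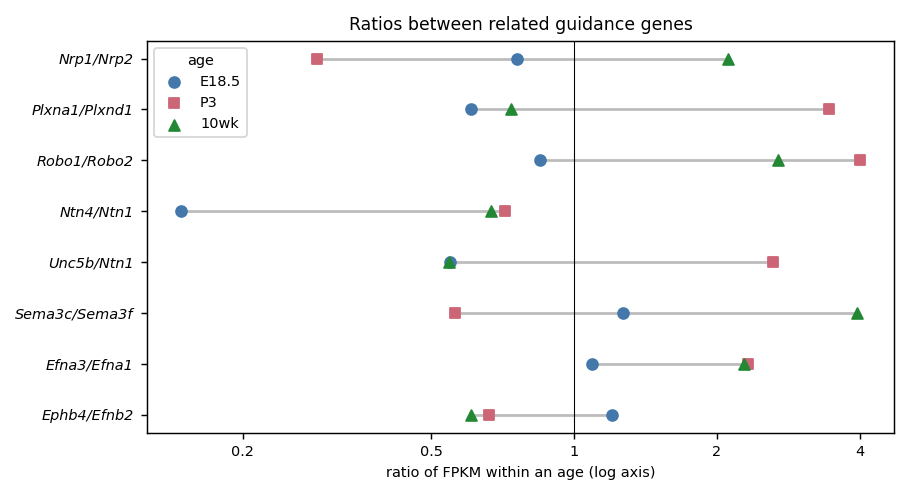
Ratios of FPKM between related guidance genes within each age, on a log axis with a line at 1; circles are E18.5, squares P3 and triangles 10 weeks. The Nrp1 to Nrp2 ratio is 0.287 at P3 and 2.11 at 10 weeks, and the Robo1 to Robo2 ratio is 0.847 at E18.5 and 4.01 at P3.

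Partners and effectors of these ligands and receptors were counted in the same way. Of 75 partners and effectors in 7 lists, 69 were compared: 5 were higher and 5 lower in P3 skin relative to E18.5, 9 higher and 7 lower at 10 weeks than at P3, and 6 higher and 1 lower at 10 weeks than at E18.5. Of all genes 9.56% and 9.42%, 19.8% and 9.98%, and 16.1% and 6.92% were higher and lower in these comparisons, so the partners' shares were near or below those of all genes. For P3 over E18.5 the higher were Limk2, a kinase that inactivates cofilin, Mical2, an enzyme that oxidises actin, the ephexin gene Ngef, and the adhesion proteins L1cam and Chl1. Limk2 was at 27.7 (E18.5), 69.3 (P3) and 23.7 (10wk) FPKM, Mical2 at 7.06 (E18.5), 20.7 (P3) and 8.63 (10wk), L1cam at 2.63 (E18.5), 6.97 (P3) and 6.16 (10wk), and Chl1 at 10.0 (E18.5), 21.7 (P3) and 23.6 (10wk). The lower were Vegfa, its receptors Kdr and Flt1, the collapsin response mediator Dpysl2 and the small GTPase Rras, which was at 55.2 (E18.5), 26.8 (P3) and 86.8 (10wk) FPKM. The calls of Ngef (1.0), Chl1 (1.04), Dpysl2 (-1.02) and Rras (-1.02) lie close to the threshold. The other scalings shift log2 ratios of FPKM for P3 over E18.5 by -0.11 to -0.18. Both Limk2 and Mical2 were lower again at 10 weeks (-1.51 and -1.17), as were Flrt1, Flrt3, Ablim1, Farp1 and Enah. Farp1, a plexin-associated exchange factor, was at 14.7 (E18.5), 21.6 (P3) and 7.03 (10wk) FPKM, and Enah, an actin elongation factor, at 20.0 (E18.5), 22.7 (P3) and 8.20 (10wk). Higher at 10 weeks than at P3 were Vegfa, Kdr, Flt1, Rras, Flrt2, Ntng2, Fes, Sdcbp and Dapk1. Fes, a tyrosine kinase that binds plexin-A receptors, was at 5.05 (E18.5), 3.17 (P3) and 15.2 (10wk) FPKM. Of the 10 Slit-Robo effectors, 0 were called for P3 over E18.5, and their summed FPKM was 140 (E18.5), 155 (P3) and 155 (10wk).

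Several calls lay close to the threshold. For P3 over E18.5 the nearest inside were Ephb1 (1.14) and Sema6c and Sema5b (-1.02 each), and the nearest outside Plxnb1 (0.96) and Sema3g (-0.74). For 10 weeks over P3 they were Sema3g (1.07) and Robo2 (-1.05) inside, and Robo4 (0.88) and Sema4g (-0.99) outside. For 10 weeks over E18.5 they were Efna3 (1.09) and Sema3a (-1.07) inside, and Sema3b (0.95) and Robo1 (-0.91) outside.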

How the data were processed

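Whole skin of FVB mice at E18.5, P3 and 10 weeks was measured by RNA sequencing, with 1 sample per age. The authors deposited FPKM values, headed as averages, per the file headers. TopHat2 2.0.7, Cufflinks 2.1.1 and the genome build mm9 are named in the submitters' processing notes. The annotation, strand setting, read numbers, averaging and treatment of shared reads have no statement in the labels or file headers, so depth is unknown.

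The tables were joined by gene symbol (21877 rows). Values listed at 0 with a failure mark (3 at E18.5 and 7 at P3) were left out. No member was among them, its status being OK for 175 values and NOTEST for 35. Starts are counted from 0 in the tables, judged from 523 microRNA rows (219 lengths against 3), so 1 was added. Differences used log2(FPKM + 1), restricted to genes whose highest value was 1 FPKM or more, and 2-fold was the size called. As each age has 1 value, no test was run, and the limma fit foreseen for replicate columns was not used. The calling step was run on simulated data, exact copies of high P3 values with large fixed changes and no noise. That checks the code only and says nothing of low genes or of genes near the threshold. Alternatives were pseudocounts of 0.1 and 5, no minimum and a minimum of 5 FPKM, scaling by the median of ratios, by the upper quartile or to the sum without the 100 highest genes of any age (rescaled to a fixed total, which also changes what the pseudocount and minimum are worth), and thresholds of 1.5-fold and 3-fold. Every member called in a comparison is named, with the most abundant of each family and those nearest the threshold, and genes of the other lists by whether they were called. Members and lists were chosen with earlier results of these data known. Python 3.11.15, pandas 2.3.3, NumPy 2.4.6 and matplotlib 3.10.9 were used. Promoters are RefSeq's (GRCm38.p6), matched by symbol for 61 of 70 members, and no coordinate was converted between builds.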

Additional observations from a re-analysis of the deposited data

How the results depend on the processing

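No paired analysis was possible because each age has 1 averaged value. Leaving out a replicate could not be done for the same reason. Of the counts, those for P3 over E18.5 (11 higher, 9 lower) became 6 and 1 with a pseudocount of 5, 1 and 0 at 3-fold, and 21 and 14 at 1.5-fold. At 10 weeks over P3 (9 higher, 10 lower) they became 4 and 2 at 3-fold and 14 and 19 at 1.5-fold, with 5 lower for a pseudocount of 5 and 16 lower for scaling to the sum. At 10 weeks over E18.5 (7 higher, 4 lower) they became 4 and 1 with a pseudocount of 5, 2 and 1 at 3-fold, and 12 and 9 at 1.5-fold, with 3 higher under the upper quartile, and 7 lower with a pseudocount of 0.1 or scaling to the sum and 2 lower with a minimum of 5 FPKM. The median of the members, 0.16 for P3 over E18.5, was 0.11 with a pseudocount of 5, -0.0064 with no minimum, 0.44 with a minimum of 5 FPKM, 0.06 with the median of ratios, -0.00093 with the upper quartile, -0.04 with the sum, and 0.02 without chromosomes X and Y, an alternative added after seeing the data. The median of -0.37 for 10 weeks over P3 was -0.23 with a pseudocount of 5 and -0.03 with no minimum. That of -0.05 for 10 weeks over E18.5 was 0.03 with no minimum, 0.05 with a minimum of 5 FPKM, -0.25 with the median of ratios, -0.32 with the upper quartile and -0.20 with the sum. The thresholds and minimums change which genes are counted, and the cause of the other shifts was not tested. No member changed sign under any of these settings in a comparison in which it was called. Without Unc50 and Unc5cl, also added later, the counts could not change, as neither was called.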
